A study of Mus musculus with 2 samples.

Results

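The transcription factor genes Nkx2-1, Gata6, Cebpa, Cebpb, Cebpd and Cebpg, which act in the lung epithelial lineage, were followed in airway epithelium dissected from fetal mouse lungs at E18.5 and at E14.5 (E for embryonic day). They were found by gene name among the probes of 1 two-colour oligonucleotide array that are not controls, with Nkx2-1 listed under its former symbol Titf1. The 6 genes had 12 probes, printed on 21 spots, out of 41170 probes in all, and all 6 were among the 17247 genes that gave a ratio or a bound. Each age was 1 lung of a wild-type male CD-1 fetus, an outbred mouse stock, with no transgene or treatment at either age. Frozen lungs were cut into sections, the epithelium of the airways inside the lobes was removed with a laser, and its RNA was amplified in 1 round. The E18.5 material carried the red dye and the E14.5 material the green dye, so dye and age cannot be told apart. The study searched for effectors of FOXJ1, a regulator of motile ciliogenesis, and set these ages against each other in its lung part.

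NKX2-1 is a homeodomain protein that specifies the respiratory epithelium and later activates surfactant and secretoglobin genes in it. GATA6 is a zinc-finger factor needed for the growth and maturation of distal lung epithelium, and it can bind the same promoters as NKX2-1. The C/EBP proteins are leucine-zipper factors that bind DNA as dimers with each other. C/EBP alpha is needed for the late maturation of lung epithelium, C/EBP beta and C/EBP delta respond to glucocorticoid and inflammatory signals, and C/EBP gamma lacks a strong activation domain and dimerises with the others.

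The sequences of 3 C/EBP probes are shown because they were the second probes of their genes, against which the ratios of the brightest probes can be set. They were also picked for the leucine codons described next. Each has a reading frame without a stop codon that holds leucine codons spaced 7 codons apart, the spacing of a leucine zipper, and these codons are in capitals.
Cebpa: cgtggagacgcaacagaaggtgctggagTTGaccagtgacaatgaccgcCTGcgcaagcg
Cebpb: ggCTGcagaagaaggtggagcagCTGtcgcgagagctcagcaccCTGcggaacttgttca
Cebpg: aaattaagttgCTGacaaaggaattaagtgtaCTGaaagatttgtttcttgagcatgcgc
Such a frame is not rare, since 16.3% of all 41170 probes hold 1, and for Cebpb all 3 forward frames were free of stops. Of the 12 member probes 5 held 1, among them the brightest Cebpa probe and the dimmest Gata6 probe, not shown. On mm8, the build the files use, the Cebpa probe lies on the + strand of chromosome 7 from 34829102 to 34829161 and the Cebpb probe on the + strand of chromosome 2 from 167381014 to 167381073. The Cebpg probe lies on the - strand of chromosome 7 from 34759218 to 34759277. The Cebpa and Cebpb probes shown were the most alike of the 58 pairs of probes from different members, with 30 of 60 bases identical at the best ungapped alignment and no identical run longer than 8 bases.

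Cebpd and Cebpa were higher at E18.5 by 2-fold or more, 2 of 6 members, and 0 of 6 were lower by that much. The same size was reached by 17.3% of all 17247 genes in the higher and by 10.1% in the lower direction. The other 4 members lay within 2-fold, with Nkx2-1 and Gata6 below 0 and Cebpb and Cebpg above 0 on the log2 scale. The median log2 ratio of E18.5 over E14.5 was 0.47 over the 6 members and 0.06 over all genes. Each age is a single sample without replicate error, so no test was made and no p-value is given. The only spreads at hand were technical: the median SD of the log2 ratio was 0.05 between repeated spots of a probe (245 probes) and 0.33 between different probes of a gene (6896 genes). In bulk material such as this, more cells of a type and more RNA per cell cannot be told apart.

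**Figure D1:**
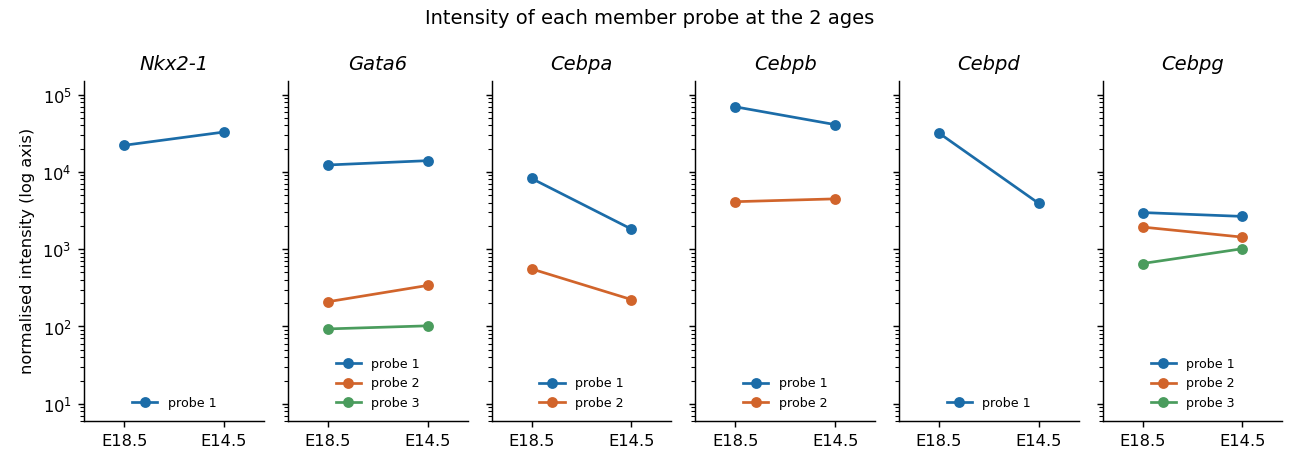
Normalised intensity (log axis) of every probe of the 6 members at E18.5 (left) and E14.5 (right) in 1 sample per age, with a line joining the values of the same probe, and probe 1 the brightest. Cebpd has the steepest line, with the E18.5 end higher, both Cebpa lines also have the higher end at E18.5, and Nkx2-1 has the lower end there, at 22109 at E18.5 and 32845 at E14.5. Intensities of different probes are not comparable with each other.

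Nkx2-1 was bright at both ages and somewhat lower at E18.5. Its single probe, on the - strand of chromosome 12 from 57450144 to 57450203 on mm8, was printed on 10 spots. Normalised intensities of these spots had a lowest value of 19549, a median of 22293 and a highest value of 24481 at E18.5, against 29211, 33576 and 36783 at E14.5. The ranges of the ages did not overlap, and all 10 spots had a ratio below 0. The log2 ratio was -0.57 ± 0.04 (SD over 10 spots of 1 array), which is 1.49-fold lower at E18.5. These spots measured the same labelled RNA, so their spread does not cover differences between lungs. The decrease was larger than the median SD between probes of a gene (0.33), and 19.6% of all genes had a lower ratio. With median centring in place of the loess curve the ratio was -0.32, no longer past that SD. The SD comes from genes with several probes, while Nkx2-1 has 1.

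Gata6 differed little between the ages. Its brightest probe, on the + strand of chromosome 18 from 11085039 to 11085097, had intensities of 12297 at E18.5 and 13988 at E14.5, a log2 ratio of -0.19. That is smaller than the median SD between probes of a gene (0.33). The second probe, 20527 bases upstream of it on mm8, had 209 at E18.5 and 340 at E14.5, a log2 ratio of -0.70, and the scanner software put this probe at -1.19. The third probe, 30504 bases upstream, was close to the local background, with a raw signal 1.89 times background at E18.5 and 2.56 times at E14.5, and gave -0.14. All 3 ratios were below 0, and their SD was 0.31.

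Cebpa, the C/EBP gene tied most closely to maturation of the lung epithelium, was higher at E18.5 by both of its probes. The brightest probe, on the + strand of chromosome 7 from 34830258 to 34830317, had intensities of 8234 at E18.5 and 1820 at E14.5. The log2 ratio was 2.18 (4.53-fold higher), and 6.01% of all genes had a higher one. The zipper probe shown above, 1156 bases upstream, had 556 at E18.5 and 223 at E14.5, a log2 ratio of 1.32 (2.49-fold higher). The SD between the probes was 0.61, and both lay past 2-fold in the same direction.

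Cebpd, a C/EBP gene that responds quickly to glucocorticoids and cytokines, had the largest ratio of the 6. Its only probe, 1 spot on the + strand of chromosome 16 from 15801944 to 15802003, had intensities of 31867 at E18.5 and 3913 at E14.5. The log2 ratio was 3.03 (8.14-fold higher), and 3.06% of all genes had a higher one. Raw signals were 585 times background at E18.5 and 77.0 times at E14.5, so neither value was near the floor. With 1 probe and 1 spot, no technical spread can be given for it.

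Cebpb, whose product acts in acute-phase and macrophage gene programmes as well as in epithelium, gave probes that disagreed. The brightest, on the + strand of chromosome 2 from 167381552 to 167381610, had intensities of 69604 at E18.5 and 40945 at E14.5, a log2 ratio of 0.77 (1.70-fold higher). The zipper probe shown above, 537 bases upstream, had 4119 at E18.5 and 4482 at E14.5, a log2 ratio of -0.12. The SD between the probes was 0.63, so the size of the difference depends on the probe. With median centring in place of the loess curve the brightest probe came to 1.14, past 2-fold.

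Cebpg, the dimer partner without a strong activation domain, showed no common direction. Its brightest probe, on the - strand of chromosome 7 from 34756492 to 34756551, had intensities of 2981 at E18.5 and 2657 at E14.5, a log2 ratio of 0.17. The zipper probe had 1934 at E18.5 and 1433 at E14.5 (log2 ratio 0.43). The probe nearest the 3′ end had 653 at E18.5 and 1015 at E14.5 (log2 ratio -0.64). The 3 probes had an SD of 0.56, larger than the ratio of any probe but the last.

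**Figure D2:**
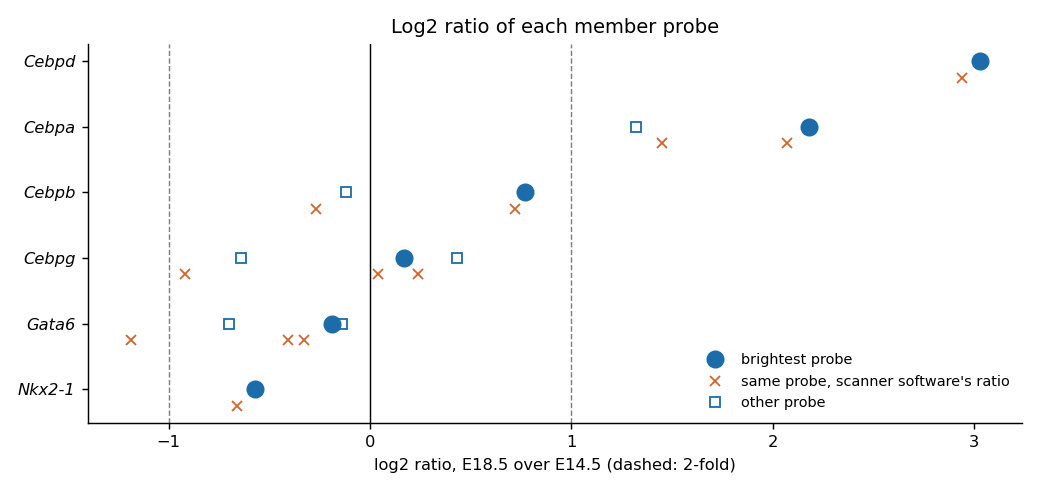
Log2 ratio of E18.5 over E14.5 (horizontal axis, dashed lines at 2-fold) for every probe of the 6 members, with the brightest probe as a filled circle, other probes as open squares, and the scanner software's own ratio of each probe as a cross. The Cebpa probes at 1.32 and 2.18 lie apart from those of Cebpb, Cebpg, Gata6 and Nkx2-1, and among those 4 genes each overlaps its neighbour in the order of the ratios.

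In order of the log2 ratio the members ran Cebpd, Cebpa, Cebpb, Cebpg, Gata6 and Nkx2-1. Neighbours differed by 0.85, 1.41, 0.60, 0.35 and 0.39. The step between Cebpa and Cebpb was the only 1 between neighbouring genes with several probes whose probe ranges did not overlap: 1.32 to 2.18 for Cebpa, and -0.12 to 0.77 for Cebpb. The range of Cebpg, -0.64 to 0.43, overlapped those of Cebpb and Gata6 (-0.70 to -0.14), and the Gata6 range held the Nkx2-1 value. Of the 12 probes, 3 passed 2-fold upward at E18.5, 0 passed it downward and 9 lay inside it.

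A ratio over 2 samples is shared by many genes, so likeness says little for members near 0. Within 0.1 of Cebpg lay 1948 genes (11.3% of all), within 0.1 of Gata6 1794, within 0.1 of Nkx2-1 998 and within 0.1 of Cebpb 824. Cebpa had 155 such genes and Cebpd 81 (0.47%). Among the related genes listed below, the nearest in log2 ratio to Cebpd was Stat3 (2.81), which transmits cytokine signals. The nearest to Cebpa was Hopx (2.04), a homeodomain-only cofactor made in alveolar cells. Stat3 lay 0.219 from Cebpd and Hopx 0.133 from Cebpa, both outside the 0.1 window. The other Stat3 probe was at 0.28, so its nearness to Cebpd depends on the probe. Those nearest to the other members were Zfpm1 (0.77) for Cebpb, Nkx2-4 (0.16) for Cebpg, Hsd11b2 (-0.21) for Gata6 and Zfpm2 (-0.48) for Nkx2-1. Hsd11b2 was near background (94.2 at E18.5, 109 at E14.5), and the scanner software put it at -0.81, so its nearness to Gata6 cannot be relied on.

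Relatives of the members were mostly within 2-fold or dim. For this and the later lists, the shares of all genes past 2-fold were 17.3% upward and 10.1% downward. Among 7 bZIP partners and Tribbles genes, 2 passed 2-fold upward at E18.5, 0 downward and 5 neither way (median log2 ratio 0.20). Trib2, which promotes degradation of C/EBP alpha, had intensities of 7170 at E18.5 and 1914 at E14.5 (log2 ratio 1.91, other probe 1.25). Trib3 had a log2 ratio of 1.96, but its other probe gave 0.22. Atf5 was at 0.84, Trib1 at -0.76, and Ddit3, a C/EBP-like inhibitor induced by stress, at -0.23. Cebpe has no value because none of the probes used carried its name.

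By their brightest probes, the other GATA factors had intensities of at most 925 at E18.5 and 536 at E14.5. Among 9 GATA factor and cofactor genes, 1 passed 2-fold upward, 2 downward and 6 neither way (median -0.39). Gata2, made in endothelium and blood cells, was at 1.01 (925 at E18.5, 461 at E14.5, other probe 1.17). Among 10 endothelial markers, 4 passed 2-fold upward, 0 downward and 6 neither way (median 0.86), from Tie1 at 0.09 to Kdr at 4.13. The part of endothelium in the Gata2 ratio was not tested. Gata5 was at -1.33 (214 at E18.5, 536 at E14.5) and the cofactor Lmo1 at -1.30. Gata3 and Gata4 were at -0.39 and -0.01 with intensities of 113 and 147 at E18.5 and 149 and 148 at E14.5. The GATA cofactors Zfpm1 and Zfpm2 were at 0.77 and -0.48. Of 6 other NK2 homeobox genes, 2 were not well above background at either age and 4 lay within 2-fold. Nkx2-4 (0.16), Nkx2-3 (0.09), Nkx2-5 (0.08) and Nkx2-6 (-0.25) all had intensities between 95.3 and 258 at E18.5 and between 104 and 231 at E14.5.

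Factors that act with the members in lung were mixed. Among 18, 3 passed 2-fold upward at E18.5, 4 downward and 11 neither way (median -0.29), beside 17.3% upward and 10.1% downward over all genes. Wwtr1 encodes TAZ, a coactivator that binds NKX2-1, and had intensities of 13961 at E18.5 and 1394 at E14.5 (log2 ratio 3.32, other probe 1.18). Hopx (2.04) and the epithelial factor Elf5 (1.99) were the others that were higher. The lowest were Etv5 (-2.78, other probe -2.05), an output of FGF signalling in the distal tips, and Foxp2 (-1.84, other probe -1.24), a repressor of lung-specific promoters.

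Genes that NKX2-1 or C/EBP factors are known to act on were mostly higher at E18.5, while Nkx2-1 itself was at -0.57. Among 14 genes bound or activated by NKX2-1, 11 passed 2-fold upward, 1 downward and 2 neither way (median log2 ratio 4.03). Sftpd was at 8.33, Scgb1a1 at 8.03 and Scgb3a2 at 7.42. Cldn18, a claudin of lung epithelium, was at -1.52 and the ligand gene Wnt7b at -0.83. Among 13 measured genes linked to C/EBP factors, 12 passed 2-fold upward, 0 downward and 1 neither way (median 4.43). Sftpd, Scgb1a1 and the club cell enzyme Cyp2f2 (7.60) led it, and the smallest were Fasn, fatty acid synthase (1.44, other probe 1.08), and Csf3r (0.49). The list holds genes that leukocytes also make, Lyz2 (6.38, other probe 4.32), Lcn2 (6.0), Saa3 (4.18) and Csf3r, and 9 of 12 leukocyte markers also passed 2-fold upward (median 2.06). The part of leukocytes in these ratios was not tested. Some genes stand in both lists, which were drawn up with results of these data known, so neither count is independent of the other.

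Genes linked to GATA6 were split. Among 7, 3 passed 2-fold upward, 2 downward and 2 neither way (median 0.33). Aqp5, a water channel (4.43), Sftpa1 (4.10, other probe 4.24) and Sftpc (2.54) were higher. All 3 also stand in the NKX2-1 or C/EBP list, so this upward count is not separate from those above. Wnt7b is shared too, and only Fzd1 (0.33), Fzd2 and Fzd7 are in this list alone. The Wnt receptor genes Fzd7 (-1.49) and Fzd2 (-1.31, other probe -3.18) were lower, but the other Fzd7 probe, at -0.83, lay inside 2-fold.

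Genes that feed signals to the C/EBP genes included large ratios. Among 9, 4 passed 2-fold upward, 0 downward and 5 neither way (median 0.97). Hsd11b1, which regenerates active glucocorticoid, had intensities of 12777 at E18.5 and 354 at E14.5 (log2 ratio 5.17). Stat3 was at 2.81, with its other probe at 0.28, and Socs3, a STAT3-induced inhibitor of cytokine signalling, at 1.99. The glucocorticoid receptor gene Nr3c1, named after its value was seen, was at 0.35, with its other probes at -0.22, -0.19 and -0.01, so its probes had no common direction. By their brightest probes, Creb1 (-0.38) and Hsd11b2 (-0.21, near background) were the lowest. The other Creb1 probes were at -1.15, past 2-fold downward, and -0.75.

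**Figure D3:**
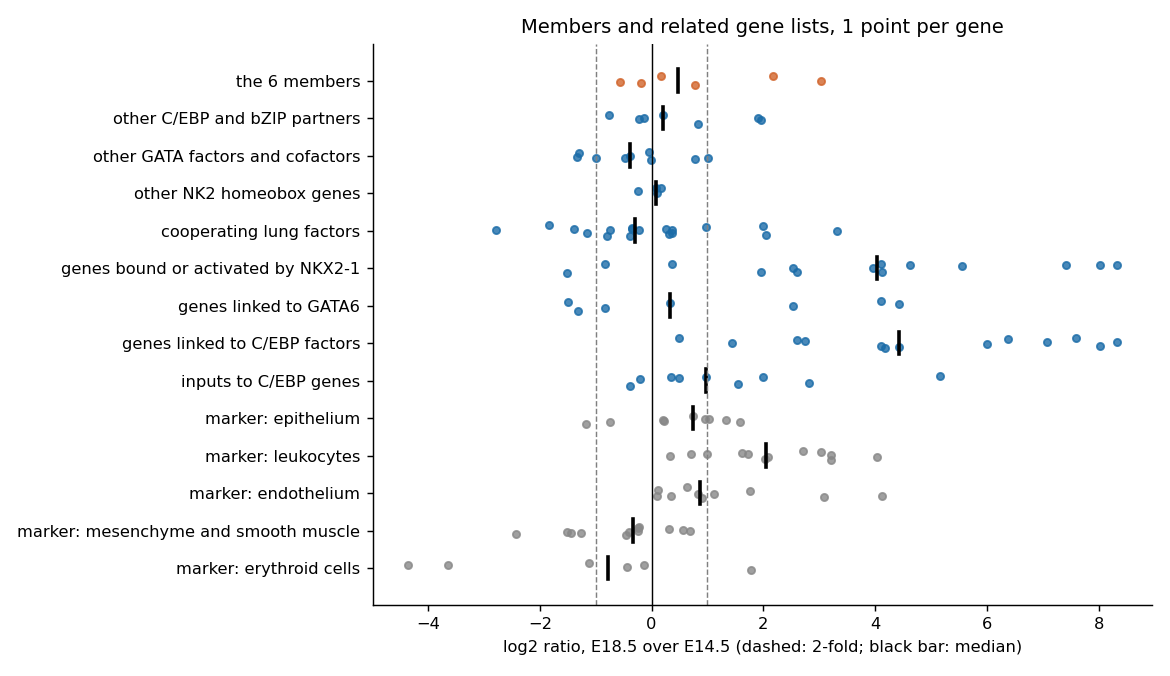
Log2 ratio of E18.5 over E14.5 (horizontal axis) for the 6 members (orange), related gene lists (blue) and cell type markers (grey), 1 point per gene, with a black bar at each list's median and dashed lines at 2-fold. Points of the lists linked to NKX2-1 and C/EBP factors reach 8.33, beyond Cebpd at 3.03. The leukocyte gene Itgam is a lower bound.

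Epithelial markers were measured at both ages. All 9 were well above background, from 2723 to 130528 at E18.5 and from 6142 to 77394 at E14.5, and their ratios went in both directions. At E18.5, 3 passed 2-fold upward, 1 downward and 5 neither way (median log2 ratio 0.75), with Krt18 at 1.59, Epcam at -0.75 and Cldn4 at -1.17. Markers of leukocytes, in which Cebpa, Cebpb and Cebpd are also made, were higher at E18.5. Among 12 leukocyte markers, 9 passed 2-fold upward, 0 downward and 3 neither way, with a median of 2.06 and summed intensities of 31293 at E18.5 and 7535 at E14.5. Ptprc, which defines leukocytes, had 1365 at E18.5 and 148 at E14.5. The part of leukocytes in the Cebpa, Cebpb and Cebpd ratios was not tested. Of 12 markers of mesenchyme and smooth muscle, where Gata6 is also made, 0 passed 2-fold upward, 4 downward and 8 neither way (median -0.33). The 4 were the muscle genes Acta2 (-1.52), Myh11 (-2.43), Cnn1 (-1.45) and Des (-1.27). By their brightest probes, Col1a1 (0.32), Col1a2 (0.69) and Col3a1 (0.56) lay above 0, and the rest between -0.45 and -0.23. Other probes were at -0.17 and 0.01 for Col1a1, 0.10 for Col1a2 and 0.64 for Col3a1. The other probe of the muscle gene Tagln, at -1.17, was past 2-fold downward. Summed intensities were 457203 at E18.5 and 564303 at E14.5, with Acta2 alone at 66996 and 192297. Their part in the Gata6 ratio was not tested. Among 6 erythroid markers, 1 passed 2-fold upward, 3 downward and 2 neither way (median -0.78).

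Promoter sequences are given for genes whose ratios stand beside those of the members, to show what a match to each factor's motif looks like. The 250 bases before each gene's start were taken from RefSeq (build GRCm38.p6) and searched on both strands for the NKX2-1 motif CTCAAG, for the GATA factor motif AGATAA and for the C/EBP motif TTNNGNAA, and on the gene's own strand for the TATA box motif TATAAA. Among genes of the NKX2-1 list, 6 had an entry that was used and 2 of these held CTCAAG (Sftpb and Scgb3a1), against 13.3% of all 32851 promoters. CTCAAG was also in 3 of 5 bZIP partners and Tribbles genes and in 2 of 12 factors that act with the members. The C/EBP list had 1 of 9, and the remaining lists had 0. Among genes of the C/EBP list, 9 had an entry that was used and 4 held TTNNGNAA, against 36.8% of all promoters. TTNNGNAA was also in 4 of 7 genes that feed signals to the C/EBP genes and in 6 of 12 factors that act with the members. The NKX2-1 list had 2 of 6, the GATA6 list 1 of 3, and the bZIP partners and Tribbles genes 1 of 5. The GATA factors and cofactors had 2 of 7 and the NK2 genes 0 of 5. Among genes of the GATA6 list, 3 had an entry that was used and 1 held AGATAA (Fzd1), against 9.99% of all promoters. Each other list held AGATAA in at most 1 gene. Saa3, an acute-phase gene at a log2 ratio of 4.18 (1723 at E18.5, 94.8 at E14.5, near background), held 4 matches to TTNNGNAA and is shown for that reason. Of the members, 4 had an entry (Nkx2-1, Cebpa, Cebpb and Cebpg), and Cebpa held the only motif found in them, a TATAAA starting 30 bases before its start. TATAAA was in 7.59% of all promoters. In capitals are the matches to CTCAAG in Sftpb, to TTNNGNAA in Saa3 and to TATAAA in Cebpa, in the order Sftpb (chr6:72304360-72304609, + strand), Saa3 (chr7:46715677-46715926, - strand) and Cebpa (chr7:35119043-35119292, + strand).
Sftpb: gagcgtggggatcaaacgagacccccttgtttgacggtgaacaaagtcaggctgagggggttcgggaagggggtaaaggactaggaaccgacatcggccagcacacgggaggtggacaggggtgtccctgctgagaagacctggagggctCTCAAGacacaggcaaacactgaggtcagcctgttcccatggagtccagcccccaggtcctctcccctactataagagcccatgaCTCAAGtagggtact
Saa3: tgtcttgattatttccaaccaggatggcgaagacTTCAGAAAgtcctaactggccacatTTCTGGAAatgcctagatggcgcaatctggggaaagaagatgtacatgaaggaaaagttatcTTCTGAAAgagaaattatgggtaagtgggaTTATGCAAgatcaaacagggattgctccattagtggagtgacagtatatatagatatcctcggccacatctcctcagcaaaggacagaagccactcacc
Cebpa: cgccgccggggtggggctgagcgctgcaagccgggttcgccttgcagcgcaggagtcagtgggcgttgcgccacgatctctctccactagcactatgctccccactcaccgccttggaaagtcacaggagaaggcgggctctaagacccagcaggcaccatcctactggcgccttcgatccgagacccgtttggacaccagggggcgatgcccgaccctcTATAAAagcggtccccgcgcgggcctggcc
The Sftpb matches start 100 and 15 bases before its start. The Saa3 matches start 216, 191, 129 and 99 bases before its start. A match to a motif is a description of the letters and not evidence of binding.

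Across 6 other ways of processing the array, the Cebpd log2 ratio lay between 2.94 and 3.14 and that of Cebpa between 1.75 and 2.20. Nkx2-1 lay between -0.66 and -0.32, Gata6 between -0.33 and -0.05, Cebpb between 0.32 and 1.14, and Cebpg between 0.04 and 0.18. These alternatives are not all separate checks. The authors' value table gave the same member ratios as the scanner software's signals. Dropping the dim-probe filter left every member's brightest probe in place. Nkx2-1 and Cebpd have 1 probe, so the median over probes could not move them.

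**Figure D4:**
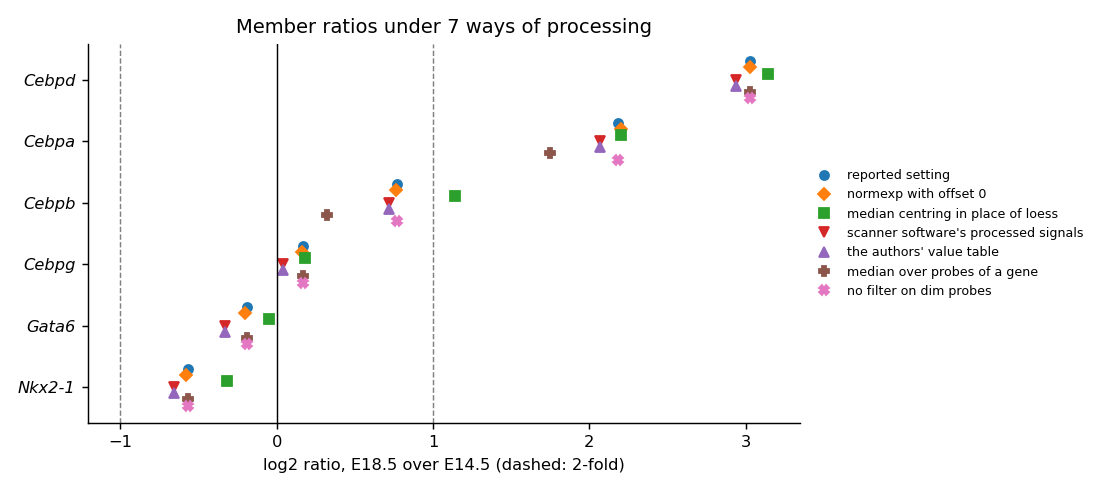
Log2 ratio of E18.5 over E14.5 (horizontal axis, dashed lines at 2-fold) of each member under the reported setting and 6 alternatives, each with its own marker. Cebpd and Cebpa stay above 2-fold in all 7, not all of which could differ, and Cebpb passes 2-fold with median centring only.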

How the data were processed

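The scanner tables hold each spot's mean intensity and median local background intensity per channel, as deposited by the authors, and the submitters' processing notes name Agilent Feature Extraction 9.5.3.1. That software made the processed intensities and the log10 ratios (red divided by green) that the authors deposited beside them, and flags per the file headers. The samples' tables agreed in 115 of 115 columns and were read as 1 array, red for E18.5 and green for E14.5, per the labels. The authors' value table holds linear intensities with a floor of 15.

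Intensities were background-corrected with normexp (offset 50) and normalised by loess (span 0.3, 4 iterations) in limma 3.58.1 and R 4.3.3. Recovery of known ratios was checked on simulated data in which few spots changed, equally in both directions. That check does not cover the unequal shares seen here, 17.3% of genes higher and 10.1% lower. The offset pulls ratios of dim probes towards 0. Of 43379 probe spots, 160 outliers were left out, and 79.0% were well above background at E18.5 and 75.6% at E14.5. Probes were named by RefSeq accession or symbol (GRCm38.p6, names only): 33113 named, 8057 not. A gene took its brightest probe well above background in at least 1 channel. A probe above background in 1 channel gave a bound. Calls were by size, at 2-fold.

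Members, lists and the rule for named genes (each list's 3 highest and 2 lowest, the nearest gene to each member, and a few set relatives) were chosen with earlier results of these data known. Alternatives changed the offset, centring, source of values, probe rule and dim-probe filter. The promoter of 1 listed gene is not reported here.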

Additional observations from a re-analysis of the deposited data

How the results depend on the processing

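Of 126 values recomputed under 6 alternatives, 9 moved further than a set limit and 117 did not. The limit was 0.33 on the log2 scale (the median SD between probes of a gene), or 1.5 times for counts. Of the log2 values past 2-fold in the reported setting, 0 changed sign. Changes of sign in smaller values were not counted. Some alternatives could not change some values, or gave the same ones as another, so 117 overstates the number of separate checks. With median centring in place of loess, Cebpb came to 1.14, so 3 members passed 2-fold in place of 2, and the epithelial marker median came to 1.14. With the median over probes, Cebpa came to 1.75 and Cebpb to 0.32. The median of the genes linked to C/EBP factors came to 5.24 with offset 0 and to 5.95 with both the scanner software's signals and the authors' value table, and the erythroid marker median to -1.35 with either of the last; the cause was not tested. The median of the other NK2 homeobox genes, 0.08, was -0.01 with those same settings. They put the median of all genes at -0.05, a shift of about 0.1 from 0.06, and 2692 and 2577 genes at least 2-fold lower, against 1739. The 1 array limits the precision, as does low signal over background for dim probes. No paired analysis was possible because each age has 1 sample.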
